A study of Mus musculus with 9 samples.

Results

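The 10 genes described here code for proteins that the liver secretes or can secrete into the blood as hormone-like signals: Fgf21, Gdf15, the activin and inhibin beta subunits Inhba, Inhbb, Inhbc and Inhbe, the angiopoietin-like genes Angptl4 and Angptl8, and Ahsg and Lect2. They were chosen by name out of 54532 genes, and each name matched a single gene. Liver RNA of 9 male C57BL/6 mice, 5 to 7 weeks old, was sequenced, with 3 mice in each of the NC, APAP and AMSC groups. The NC mice are labelled only as controls. The APAP mice were fasted overnight and then given 500 mg/kg of acetaminophen (APAP, also called paracetamol) once into the peritoneum, and their livers were taken after 6 h. The AMSC mice had the same dose and, directly after it, adipose-derived mesenchymal stem cells through the tail vein, and their livers were taken at the same time. The AMSCs had been grown from inguinal fat of C57BL/6 mice, so their transcripts cannot be told apart from those of the host. The study methods state an overnight fast for all animals before APAP, in a sentence on dosed mice. Whether this covers the NC mice, and whether they were given a vehicle, is not spelled out in the sources used here. This matters for genes that respond to feeding. There was no group that received AMSCs without APAP. Replicates were numbered 1, 2 and 3 in the NC and APAP groups and 2, 3 and 4 in the AMSC group, and each library was described as a biological replicate. The title of NC replicate 3 carries another date than those of the other 8 libraries.

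Hepatokines are proteins through which the liver acts on fat, muscle, brain and pancreas. FGF21 and GDF15 are endocrine stress signals whose genes can be switched on by ATF4 and CHOP, the transcription factors of the integrated stress response, and Fgf21 is also a target of PPAR-alpha, the fatty acid receptor of the fasted liver. The inhibin beta subunits pair to form activins or, with the alpha subunit, inhibins, which belong to the TGF-beta family, and Inhbc and Inhbe are the subunits made mainly by hepatocytes. ANGPTL4 and ANGPTL8 restrain lipoprotein lipase, the former typically in fasting and the latter after feeding. Ahsg codes for fetuin-A, an abundant plasma glycoprotein that binds calcium phosphate and the insulin receptor, and Lect2 for a hepatocyte-derived chemotactic factor.

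Expression was deposited as FPKM, the fragments on a gene divided by its length and by a scaled library size. Genes received 13418921 to 16210930 reads per library, and 1 read on 1 kilobase of gene was worth 0.0578 to 0.0807 FPKM. The hepatocyte markers summed to 39757 to 42829 FPKM in the NC group, 56945 to 66445 in the APAP group and 51841 to 54184 in the AMSC group, and none of the 8 was at 0. In the deposited values the median gene was nearly equal between the groups. When each library was divided by its total reads on genes instead, the median log2 fold change of all genes moved to -0.22 in APAP against NC, 0.06 in AMSC against APAP and -0.14 in AMSC against NC. In whole liver, fewer cells of a type and less RNA per cell cannot be told apart.

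The promoters of 9 of the 10 genes were found in the RefSeq table on GRCm38.p6, in 10 windows because Gdf15 has more than 1 start. Angptl4 had no entry. Of 7 motifs searched on both strands in the 250 bases before each start, the letters TGATGCAA, the composite element that ATF4 and C/EBP proteins can share, were present in 260 of 32851 promoters (0.79%) and in 3 of the 10 windows, those of Fgf21, Angptl8 and Inhbe. The motifs were chosen with these windows in view, so the count is a description. The 3 stretches are shown because they hold the same letters in genes whose RNA moved in opposite directions, with the element in capitals, read 5′ to 3′ on the strand of the gene. They lie at chr7:45615611-45615640, minus strand, for Fgf21, at chr9:21835369-21835398, plus strand, for Angptl8 and at chr10:127352011-127352040, minus strand, for Inhbe.
Fgf21: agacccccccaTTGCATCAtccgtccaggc
Angptl8: agccatcagtcTGATGCAAtggctgagcct
Inhbe: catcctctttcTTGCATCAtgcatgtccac
Counted from the start, the element lay at positions -139 to -132 of Fgf21, -130 to -123 of Angptl8 and -181 to -174 of Inhbe. It was read as the reverse complement in Fgf21 and Inhbe and as written in Angptl8. The Inhbe window overlaps annotated exon sequence of Inhbe itself and lies inside the deposited gene. Fgf21 rose in the dosed groups, whereas Inhbe and Angptl8 fell.

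The whole windows of Fgf21 (chr7:45615491-45615740, minus strand) and Angptl8 (chr9:21835260-21835509, plus strand) are given because these genes lay far from the NC level in opposite directions. No annotated exon lies in either window. Capitals mark TGATGCAA in either orientation and, in Fgf21, the E-box CACGTG.
Fgf21: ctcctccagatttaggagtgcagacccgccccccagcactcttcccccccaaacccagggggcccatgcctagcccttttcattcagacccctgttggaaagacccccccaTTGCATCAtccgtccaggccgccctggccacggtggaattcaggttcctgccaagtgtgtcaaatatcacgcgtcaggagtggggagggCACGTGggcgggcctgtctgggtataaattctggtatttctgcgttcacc
Angptl8: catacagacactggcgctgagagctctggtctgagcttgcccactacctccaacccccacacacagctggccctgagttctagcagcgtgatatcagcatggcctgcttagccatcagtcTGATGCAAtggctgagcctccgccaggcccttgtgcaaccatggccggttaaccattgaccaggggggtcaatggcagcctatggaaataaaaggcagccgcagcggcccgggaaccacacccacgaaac
CACGTG was present in 6.02% of all promoters and, beside Fgf21, in the window of the inner start of Gdf15, which overlaps annotated exon sequence of Gdf15. TATAAA was present in 12.37% of all promoters and in the windows of Fgf21, from position -28, and Inhba, from position -91. DR1, a direct repeat with 1 spacer base of the kind that nuclear receptors can bind, was present in 0.34% of all promoters and in the outer window of Gdf15. TGACGTCA (1.55% of all promoters), TGACTCA (4.46%) and GCGTGGGCG (0.54%) were found in no window of these genes. Apart from the palindromes CACGTG and TGACGTCA, which read alike on both strands, each motif was counted in either orientation, and no matches in these windows overlapped.

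**Figure D1:**
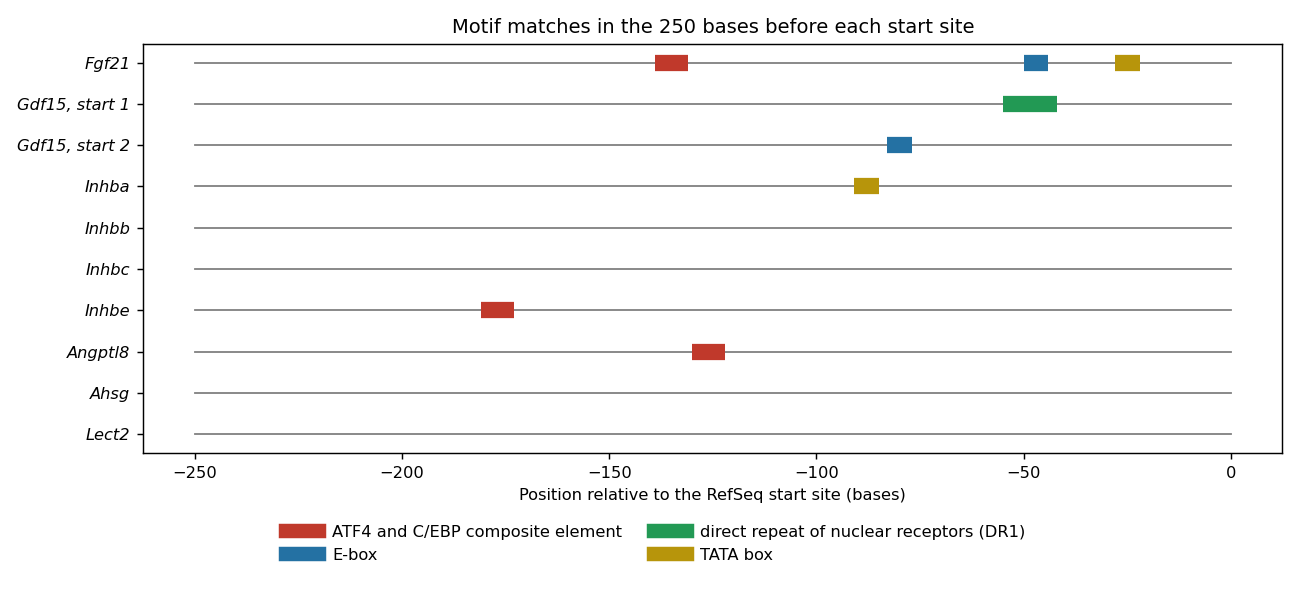
Matches of 4 motifs in the 250 bases before each RefSeq start, with the distance from the start in bases on the x axis and 1 row for each of the 10 windows. The composite element (red) stands in the rows of Fgf21, Inhbe and Angptl8, and the rows of Inhbb, Inhbc, Ahsg and Lect2 hold no match.

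The stress hormones are described first. Fgf21 (ENSMUSG00000030827, chr7:45613886-45615490, GRCm38) stood at 0.189, 0.304 and 0.122 FPKM in NC replicates 1 to 3, which rest on 3, 5 and 2 reads. It stood at 19.0, 12.1 and 19.95 FPKM in the APAP libraries and at 24.4, 11.8 and 30.9 FPKM in AMSC replicates 2, 3 and 4. Every library that had received APAP was above every NC library, and the ranges of the APAP and AMSC groups overlapped. The group means were 0.205 ± 0.0920, 17.0 ± 4.26 and 22.4 ± 9.71 FPKM (SD, n = 3 each), and the ratio of reads between APAP and NC was 83.5 with an exact 95% interval of 45.1 to 175, which covers counting error only. Fgf21 rose in the APAP group against NC (log2 fold change of FPKM + 1 of 3.87, SE 0.19, limma adjusted p = 3.17e-05) and in the AMSC group against NC (4.18, SE 0.30, adjusted p = 6.71e-05). Because the NC level is far below the pseudocount of 1 FPKM, these log2 values understate the change, and with a pseudocount of 0.1 they were 5.82 and 6.14. For the same reason Fgf21 passed the filter of a mean of 1 FPKM only through the dosed groups, where it is high. The AMSC and APAP groups could not be separated at Fgf21 (0.31, adjusted p = 0.677), with a 95% interval of -0.48 to 1.09 that leaves room for a change of either sign.

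Gdf15 (ENSMUSG00000038508, chr8:70629393-70632456) codes for the ligand of the brainstem receptor GFRAL, through which it lowers food intake. It stood at 1.62, 3.50 and 1.41 FPKM in the NC libraries, at 303, 545 and 446 FPKM in the APAP libraries and at 212, 72.0 and 224 FPKM in the AMSC libraries. All 3 groups were apart from each other, and AMSC replicate 3 was the lowest of the dosed libraries. The mean was 198-fold higher in the APAP group than in NC and 77.8-fold higher in the AMSC group than in NC. Gdf15 was the fourth from the top among 9699 genes tested in APAP against NC (7.10, SE 0.29, limma adjusted p = 1.50e-05) and rose in AMSC against NC (5.64, SE 0.43, adjusted p = 9.26e-05). The lower level in AMSC than in APAP livers, 169 ± 84.5 against 431 ± 122 FPKM (SD, n = 3 each), had a log2 difference of -1.47 (SE 0.43) that did not pass the adjustment over all genes (limma adjusted p = 0.115).

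The 4 activin and inhibin beta subunits did not share a pattern. Inhbb (ENSMUSG00000037035, chr1:119415465-119422248), the subunit of activin B, stood at 0.0423, 0.109 and 0.396 FPKM in the NC libraries, at 2.77, 4.87 and 2.82 FPKM in the APAP libraries and at 0.917, 0.597 and 0.923 FPKM in the AMSC libraries. The AMSC libraries lay between the other groups with no overlap on either side. NC values rested on 3 to 29 reads, and Inhbb passed the filter on low values only through its level in the APAP group. Inhbb rose in APAP against NC (1.90, SE 0.21, limma adjusted p = 0.000972), with a ratio of reads of 18.8 and an exact 95% interval of 13.6 to 26.6. That interval covers counting error only and not the spread between mice. It was the sole gene of the 10 to pass in AMSC against APAP, where it fell by 1.28 on the log2 scale (SE 0.20, limma adjusted p = 0.0187) to a mean of 0.812 ± 0.187 from 3.49 ± 1.20 FPKM (SD, n = 3 each). This call was lost when any 1 AMSC library was left out, with adjusted p values of 0.0568 to 0.0757, while the log2 difference stayed between -1.33 and -1.19. Against NC, Inhbb was still higher in the AMSC group (0.62, SE 0.15, limma adjusted p = 0.0193), a call that was lost in 7 of 15 alternatives.

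Markers of other liver cells were set beside Inhbb in the same libraries. The 8 macrophage markers summed to 54.8 to 110 FPKM in the NC group, 81.9 to 201 in the APAP group and 45.5 to 73.6 in the AMSC group, and Cd68 was the 1 of the 8 that passed in AMSC against APAP, lower in the AMSC group (-1.24, limma adjusted p = 0.0267). None of these 8 genes was at 0 in any library. The 8 neutrophil markers summed to 0.355 to 1.91, 7.69 to 34.8 and 4.31 to 6.08 FPKM in the same order, and up to 6 of them were at 0 in an NC library. Only 3 of the 8 passed the filter on low values, S100a8, S100a9 and Retnlg, with APAP means of 5.70, 9.80 and 2.89 FPKM. The remaining neutrophil markers had group means of at most 0.849 FPKM. NC replicate 3, the NC library with the most Inhbb, also had the highest sums of the macrophage (110 FPKM), neutrophil (1.91), endothelial (47.6) and stromal markers (39.2) in its group. In the APAP group the order was different, since replicate 2 had the most Inhbb and the lowest sums of macrophage (81.9), neutrophil (7.69), endothelial (26.7) and stromal markers (27.3). The part of these cells in the Inhbb values was not tested further.

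Inhba (ENSMUSG00000041324, chr13:16011851-16031621), the subunit of activin A, was the only one of the 10 genes under the filter of a mean of 1 FPKM. It stood at 1.10, 1.83 and 1.10 FPKM in the NC libraries, 0.455, 0.227 and 0.559 in the APAP libraries and 0.315, 0.445 and 0.177 in the AMSC libraries. Both dosed groups lay below NC without overlap, with ratios of reads of 0.311 (exact 95% interval 0.249 to 0.386) and 0.228 (0.179 to 0.288) for APAP and AMSC against NC. These intervals cover counting error only and not the spread between mice. When all genes above 0 were tested, Inhba did not pass in either comparison (log2 fold changes of -0.72 and -0.83, limma adjusted p = 0.0756 and 0.0506).

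Inhbc and Inhbe lie next to each other on chromosome 10, 1910 bases apart. Inhbc (ENSMUSG00000025405, chr10:127356322-127370431) stood at 42.6, 43.5 and 37.5 FPKM in the NC libraries, 27.4, 17.0 and 14.0 in the APAP libraries and 19.8, 22.7 and 21.7 in the AMSC libraries. All dosed libraries were below all NC libraries, and the APAP group spread around the AMSC group. Inhbc fell by 1.10 on the log2 scale in APAP against NC (SE 0.23, limma adjusted p = 0.0120) and by 0.91 in AMSC against NC (SE 0.11, adjusted p = 0.000806). The dosed groups were not separated (0.18, limma adjusted p = 0.713, 95% interval -0.35 to 0.71).

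Inhbe (ENSMUSG00000047492, chr10:127348857-127354411), the subunit of activin E and a regulator of fat breakdown in adipose tissue, stood at 15.2, 17.2 and 12.3 FPKM in the NC libraries. It was at 4.42, 1.91 and 1.22 FPKM in the APAP libraries and at 6.44, 9.27 and 7.27 FPKM in the AMSC libraries. The 3 groups did not overlap, and the AMSC group lay between the others. Inhbe fell by 2.27 on the log2 scale in APAP against NC (SE 0.31, limma adjusted p = 0.00230), at rank 23 from the bottom of all genes tested, and by 0.88 in AMSC against NC (SE 0.16, adjusted p = 0.00606). In AMSC against APAP it was 3.05-fold higher by the group means, with a log2 difference of 1.39 (SE 0.31, 95% interval 0.68 to 2.11) that lay next to the threshold (limma adjusted p = 0.0520). It passed when APAP replicate 1, the APAP library nearest to the AMSC level, was left out (1.76, limma adjusted p = 0.00678), with all 9 libraries in one fit (adjusted p = 0.0199), with voom on recovered reads (0.0323) and with scaling to total reads (0.0419). Leaving out the nearest library widens the difference by construction. In all, Inhbe passed in 5 of 16 alternatives, with limma adjusted p values up to 0.227. The gene model used for Inhbe starts before the RefSeq model, since its RefSeq start lies 2563 bases inside the deposited gene. Its length of 5319 bases lowers its FPKM beside that of Inhbc, whereas changes between groups are not affected by the length.

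**Figure D2:**
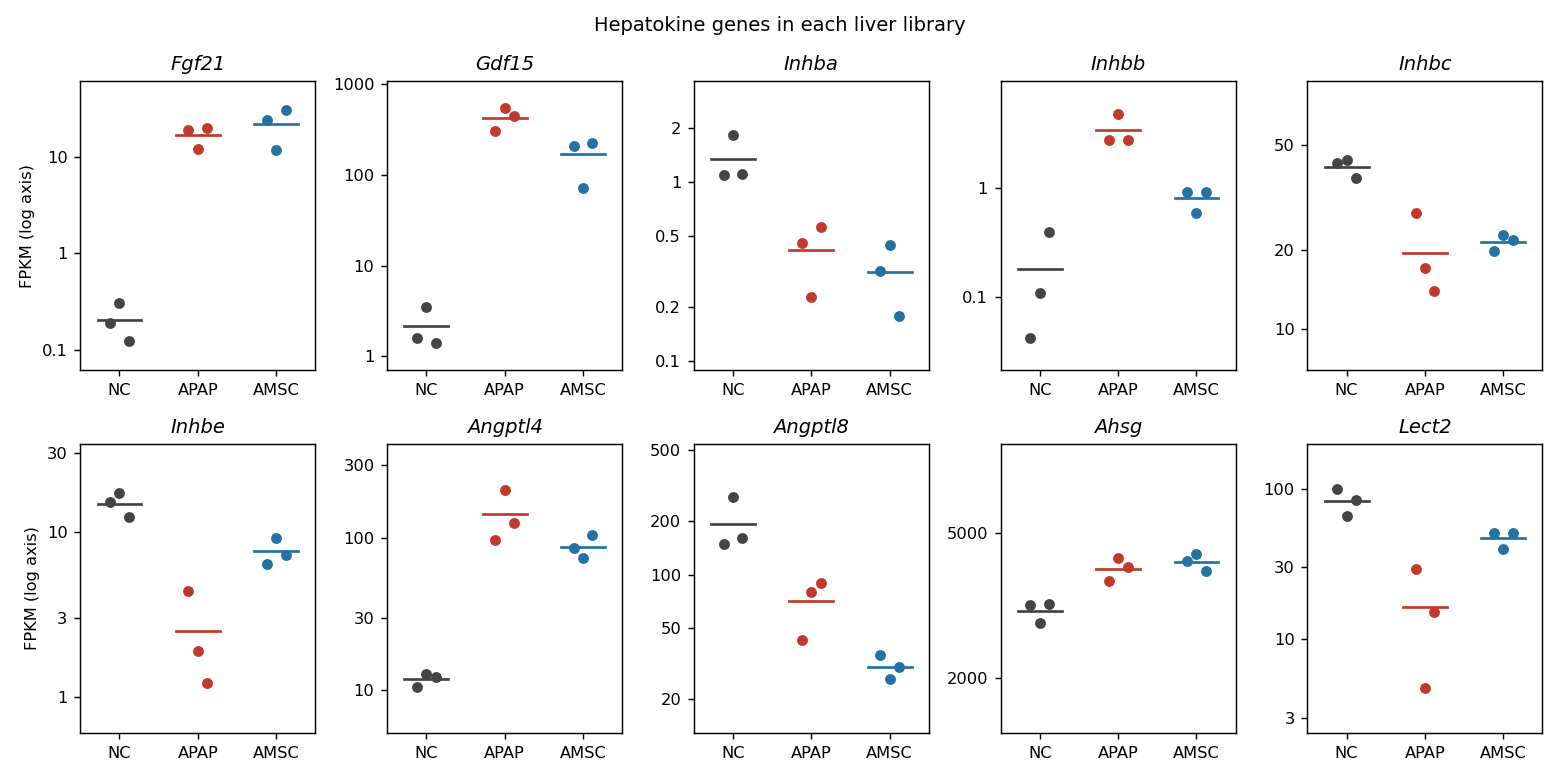
FPKM of each gene in each library on a logarithmic y axis that differs between panels, with replicates of the NC, APAP and AMSC groups as points from left to right in order of their number and the group mean as a line. In the panels of Gdf15, Inhbb, Inhbe and Lect2 the AMSC points lie between those of NC and APAP without overlap, and in that of Angptl8 they lie below both.

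The angiopoietin-like genes moved in opposite directions. Angptl4 (ENSMUSG00000002289, chr17:33773750-33781575) stood at 10.5, 12.9 and 12.3 FPKM in the NC libraries, 97.4, 207 and 124 in the APAP libraries and 85.8, 73.5 and 104 in the AMSC libraries. Dosed and NC libraries were far apart, while the dosed groups overlapped. Angptl4 rose in APAP against NC (3.41, SE 0.26, limma adjusted p = 0.000185) and in AMSC against NC (2.77, SE 0.15, adjusted p = 1.42e-05). The AMSC group had a mean of 87.8 ± 15.4 against 143 ± 57.3 FPKM in the APAP group (SD, n = 3 each), a log2 difference of -0.64 (SE 0.27) that did not pass (limma adjusted p = 0.237).

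Angptl8 (ENSMUSG00000047822, chr9:21835510-21837347), which insulin and feeding induce in the liver, stood at 149, 271 and 160 FPKM in the NC libraries. It was at 42.7, 79.8 and 90.2 FPKM in the APAP libraries and at 35.2, 25.9 and 30.2 FPKM in the AMSC libraries. The groups did not overlap, and of the 10 genes Angptl8 alone had APAP below NC and AMSC below APAP with no overlap at either step. It fell by 1.45 on the log2 scale in APAP against NC (SE 0.32, limma adjusted p = 0.0155), a call lost without NC replicate 2 (-1.18, adjusted p = 0.0516). In AMSC against NC it fell by 2.59 (SE 0.23, limma adjusted p = 0.000196) and was the seventh from the bottom of all genes tested. The difference between AMSC and APAP was -1.14 (SE 0.27, limma adjusted p = 0.0683), which passed without APAP replicate 1 (-1.46, adjusted p = 0.00678) and with voom (0.0486). In all it passed in 3 of 16 alternatives, with limma adjusted p values up to 0.244. Replicate 1 was the APAP library nearest to the AMSC mean, so leaving it out widens the difference by construction. Fasting is known to lower Angptl8, and the feeding state of the NC mice cannot be told apart from the dose in the comparisons with NC, as is true of Fgf21 and Angptl4.

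Ahsg (ENSMUSG00000022868, chr16:22891277-22899449) had by far the highest level, the fifteenth of all genes in the NC group. It stood at 3172, 2833 and 3181 FPKM in the NC libraries, 3683, 4252 and 4017 in the APAP libraries and 4182, 4377 and 3919 in the AMSC libraries. All dosed libraries were above all NC libraries, by a mean of 1.30-fold and 1.36-fold. The difference did not pass in APAP against NC (0.38, SE 0.13, limma adjusted p = 0.0683) and passed in AMSC against NC (0.44, SE 0.13, adjusted p = 0.0361). Changes of this size are within reach of the scaling, since division by total reads gave 0.12 and 0.25 (limma adjusted p = 0.456 and 0.144) and quantile normalization gave 0.02 in APAP against NC. Leaving out any 1 library of the NC or AMSC group also ended the AMSC against NC call (adjusted p = 0.0583 to 0.109).

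Lect2 (ENSMUSG00000021539, chr13:56542464-56548502) stood at 99.6, 65.4 and 84.3 FPKM in the NC libraries, 29.0, 4.74 and 15.2 in the APAP libraries and 50.8, 39.5 and 50.6 in the AMSC libraries. As with Inhbe, the AMSC group lay between the others and no groups overlapped. Lect2 fell by 2.56 on the log2 scale in APAP against NC (SE 0.53, limma adjusted p = 0.0115), the fifteenth from the bottom of all genes tested. It was 0.80 lower in AMSC against NC (SE 0.17, limma adjusted p = 0.0120). It was 2.87-fold higher by the means in AMSC than in APAP livers, with a log2 difference of 1.76 (SE 0.52, 95% interval 0.56 to 2.96) that did not pass (limma adjusted p = 0.114). Lect2 passed in 2 of 16 alternatives, with limma adjusted p values up to 0.343. These were without APAP replicate 1 (2.30, limma adjusted p = 0.0301) and with a replicate block over numbers that were not taken as pairs (2.25, adjusted p = 0.000597). Replicate 1 was the APAP library nearest to the AMSC mean, so leaving it out widens the difference by construction. The block estimate rests on replicates 2 and 3 only.

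Read together, 4 of the 9 genes tested were higher and 4 lower in APAP against NC at an adjusted p of at most 0.05, where 12.8% of all genes tested were higher and 13.1% lower. All 8 were differentially expressed genes (DEGs), with a change of at least 1 on the log2 scale, which 7.90% of all genes were. All 10 genes had groups that did not overlap, as 43.2% of the genes tested did. In AMSC against APAP, limma called 0 higher (1.64% of all genes), 1 lower (2.14%) and 1 a DEG (1.96%). At an unadjusted p under 0.05, 2 were higher (Inhbe and Lect2) and 4 lower (Gdf15, Inhbb, Angptl4 and Angptl8). The share of all genes at that level was not counted, so these numbers have no background to be read against. Voom on recovered reads called 3, namely Inhbb and Angptl8 lower and Inhbe higher. Over all 9699 genes tested, voom called 206 higher and 258 lower. The groups did not overlap for 5 genes (27.0% of all genes), Gdf15, Inhbb, Inhbe, Angptl8 and Lect2. In AMSC against NC, 5 were higher (14.1%) and 4 lower (11.9%), 4 were DEGs (6.01%), and all 10 did not overlap (43.5%). The median log2 fold change of the 9 genes was 0.38, 0.06 and 0.44 in these comparisons, against -0.0043, 0.01 and 0.02 over all genes. With total reads as the scale the calls over all genes shifted to lower ones in both comparisons with NC, since 23.7% instead of 49.4% of those in APAP against NC were higher and 29.5% instead of 54.2% of those in AMSC against NC. In AMSC against APAP they shifted to higher ones, from 43.3% to 56.0%. The comparisons share groups, so they are not independent of each other.

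**Figure D3:**
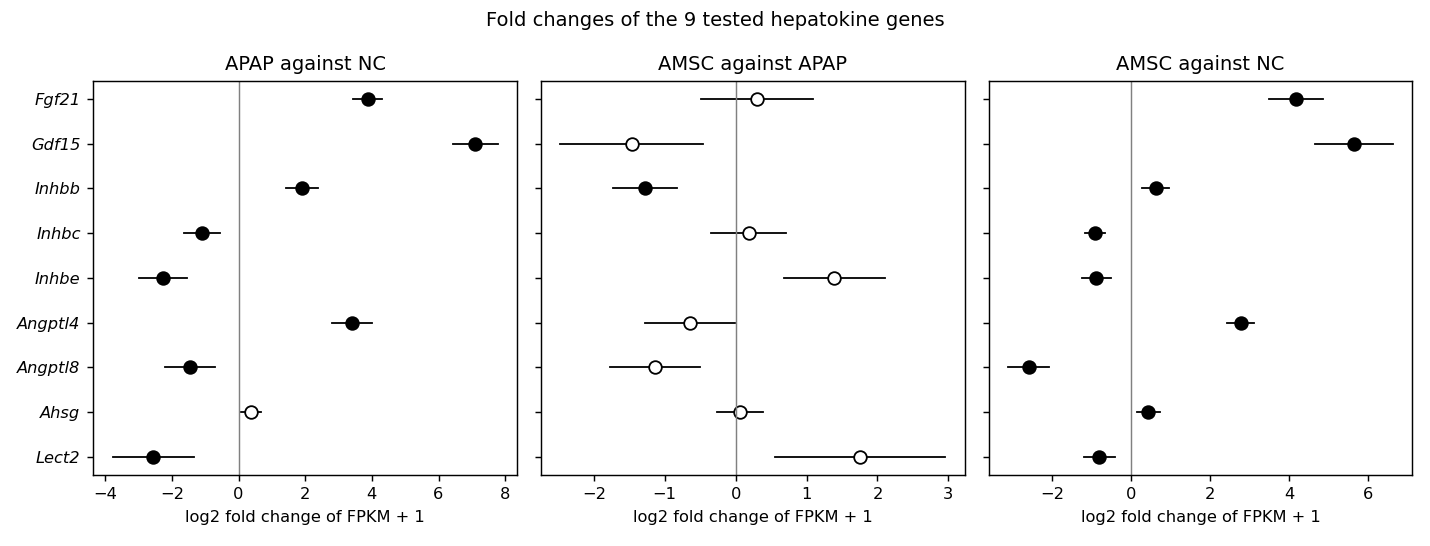
The log2 fold change of FPKM + 1 (x axis, which differs between panels) of the 9 genes tested in the 3 comparisons, with 95% confidence intervals from limma as bars and filled points for an adjusted p of at most 0.05. In the middle panel only the point of Inhbb is filled, while the points of Inhbe at 1.39 and Lect2 at 1.76 are open.

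The order of the genes by FPKM, which is a level per length, changed with the dose. In the NC group it ran Ahsg, Angptl8, Lect2, Inhbc, Inhbe, Angptl4, Gdf15, Inhba, Fgf21 and Inhbb. The ranges of Inhbe and Angptl4, of Gdf15 and Inhba and of Fgf21 and Inhbb overlapped there. In the APAP group it ran Ahsg, Gdf15, Angptl4, Angptl8, Inhbc, Fgf21, Lect2, Inhbb, Inhbe and Inhba, and neighbours from Inhbc through Inhbe overlapped in their ranges. In the AMSC group the order was Ahsg, Gdf15, Angptl4, Lect2, Angptl8, Fgf21, Inhbc, Inhbe, Inhbb and Inhba, where Gdf15 and Angptl4, Angptl8 and Fgf21, and Fgf21 and Inhbc overlapped.

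Targets of the ATF4 and CHOP pathway, of which Fgf21 and Gdf15 are known members that were left out of the list, were higher in both dosed groups. Of 19 genes listed, 14 were tested. In APAP against NC 11 of the 14 rose (median log2 fold change 1.80) and the other 3 did not pass. The rises were led by Atf3, a stress-induced transcription factor (7.45, limma adjusted p = 1.41e-05), Ddit3, which codes for CHOP (3.73), Chac1, which degrades glutathione (3.68), and Ppp1r15a, which dephosphorylates eIF2-alpha (3.11). Atf3, Chac1, Psat1 and Mthfd2 had NC means of 0.497, 0.347, 0.0232 and 0.314 FPKM. These genes passed the filter on low values only through the dosed groups, which selects for rises against NC. In AMSC against NC 13 of the 14 rose (median 2.57), led by Atf3 (7.32), Chac1 (5.56), Ddit3 (4.27) and Trib3 (3.06). Among all genes tested, 12.8% rose in APAP against NC, 14.1% in AMSC against NC and 1.64% in AMSC against APAP. In AMSC against APAP 2 passed, both higher in the AMSC group: Ddit4, an inhibitor of mTORC1 (2.43, limma adjusted p = 0.00115), and Mthfd2, a mitochondrial enzyme of folate metabolism (1.11, adjusted p = 0.0434).

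PPAR-alpha targets, the fatty acid oxidation genes of fasting, moved less. Of 15 tested, 2 rose in APAP against NC, Pdk4, which blocks the use of pyruvate (4.96, limma adjusted p = 2.16e-05), and Plin2, a lipid droplet protein (2.49). This count is near the share of all genes tested that rose there, 12.8%. Pdk4 had an NC mean of 0.307 FPKM and passed the filter on low values only through the dosed groups. In AMSC against NC 8 rose, led by Pdk4 (3.11), Plin2 (2.38), Cyp4a14 (1.65) and Ehhadh (1.03), where 14.1% of all genes tested rose. Pdk4 was the 1 gene that passed in AMSC against APAP, where it fell by 1.85 (limma adjusted p = 0.0220) and 2.14% of all genes tested fell. The medians of the list were 0.17, 0.24 and 0.47 in APAP against NC, AMSC against APAP and AMSC against NC, and the first turned to -0.03 with quantile normalization and -0.08 with total reads as the scale.

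Lipogenic genes under SREBP1 and ChREBP, which like Angptl8 respond to insulin and feeding, were lower in the dosed groups. Of 12 tested, 8 fell and the other 4 did not pass in APAP against NC (median -0.99), with Mid1ip1, an activator of acetyl-CoA carboxylase, falling by 3.05, Thrsp by 2.16, Elovl6, a fatty acid elongase, by 1.87, and Srebf1 itself by 1.70. In AMSC against NC 7 fell (median -0.99), led by Mid1ip1 (-3.60), Elovl6 (-2.44), Srebf1 (-2.30) and Fasn (-2.09), and in AMSC against APAP 1 fell, Acly (-1.09, limma adjusted p = 0.0124). The shares of all genes tested that fell were 13.1% in APAP against NC, 11.9% in AMSC against NC and 2.14% in AMSC against APAP.

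Among the receptors and co-receptors of these hormones, 10 of 15 were tested. Klb, the co-receptor of FGF21, was at 6.40, 8.81 and 7.15 FPKM in the NC, APAP and AMSC groups and did not pass in any comparison (limma adjusted p = 0.237 to 0.609). Fgfr2 rose in APAP against NC (0.77, limma adjusted p = 0.00356) and was lower in AMSC than in APAP livers (-0.88, adjusted p = 0.0207). Met, the receptor of hepatocyte growth factor that LECT2 can bind, fell by 0.73 in APAP against NC (limma adjusted p = 0.0116). Fgfr3 (-0.65) and Acvr1 (-0.42), a type I receptor of the TGF-beta family, fell in AMSC against NC. Gfral, the receptor of GDF15, was listed at 0 in all 9 libraries.

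Of the activin binding proteins, inhibin alpha and Smads, 5 of 8 were tested. Fst, which codes for the activin antagonist follistatin, rose in APAP against NC (1.22, limma adjusted p = 0.0392) and in AMSC against NC (0.76, adjusted p = 0.0269), calls that quantile normalization ended. With an NC mean of 0.246 FPKM, Fst passed the filter on low values only through the dosed groups. Smad3, which carries the activin signal to the nucleus, was lower in AMSC than in APAP livers (-0.97, limma adjusted p = 0.0262). Of the lipases and other angiopoietin-like genes listed, 7 of 9 were tested. Hepatic lipase, Lipc, rose in APAP against NC (0.59, limma adjusted p = 0.0180), a call lost with quantile normalization and with total reads as the scale. Endothelial lipase, Lipg, fell in AMSC against NC (-0.93, adjusted p = 0.0345). In AMSC against APAP the 7 genes had limma adjusted p values of 0.143 to 0.592.

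Of 25 other secreted liver proteins, 10 rose and 5 fell in APAP against NC, 3 rose and 1 fell in AMSC against APAP, and 8 rose and 3 fell in AMSC against NC. For all genes tested, 12.8% rose and 13.1% fell, 1.64% rose and 2.14% fell, and 14.1% rose and 11.9% fell in the same order. The 10 that rose in APAP against NC became 3 with quantile normalization and 4 with total reads as the scale. Tsku, which codes for the hepatokine tsukushi, followed Inhbe and Lect2, since it fell by 2.94 in APAP against NC (limma adjusted p = 0.000603) and was 2.38 higher in AMSC than in APAP livers (adjusted p = 0.0100). Igfbp1, which binds insulin-like growth factors, rose by 7.98 in APAP against NC and was lower in AMSC than in APAP livers (-1.34, limma adjusted p = 0.0447). Hamp, the gene of the iron hormone hepcidin, fell in APAP against NC (-0.97, limma adjusted p = 0.0277) and was higher in AMSC than in APAP livers (1.61, adjusted p = 0.0343), the latter call being lost with quantile normalization. Manf, which codes for a secreted protein of endoplasmic reticulum stress, fell in APAP against NC (-1.27) and in AMSC against NC (-1.73). Agt, which codes for angiotensinogen, rose in APAP against NC (1.43, limma adjusted p = 0.00833) and in AMSC against NC (1.35). Fgb, the gene of the fibrinogen beta chain, rose in APAP against NC (0.88, limma adjusted p = 0.00288) and in AMSC against NC (1.60, adjusted p = 0.000256). The difference of Fgb between AMSC and APAP livers did not pass (0.72, limma adjusted p = 0.0567). Fgl1, which codes for a fibrinogen-like protein, was higher in AMSC than in APAP livers (0.82, limma adjusted p = 0.0418), a call lost with quantile normalization.

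**Figure D4:**
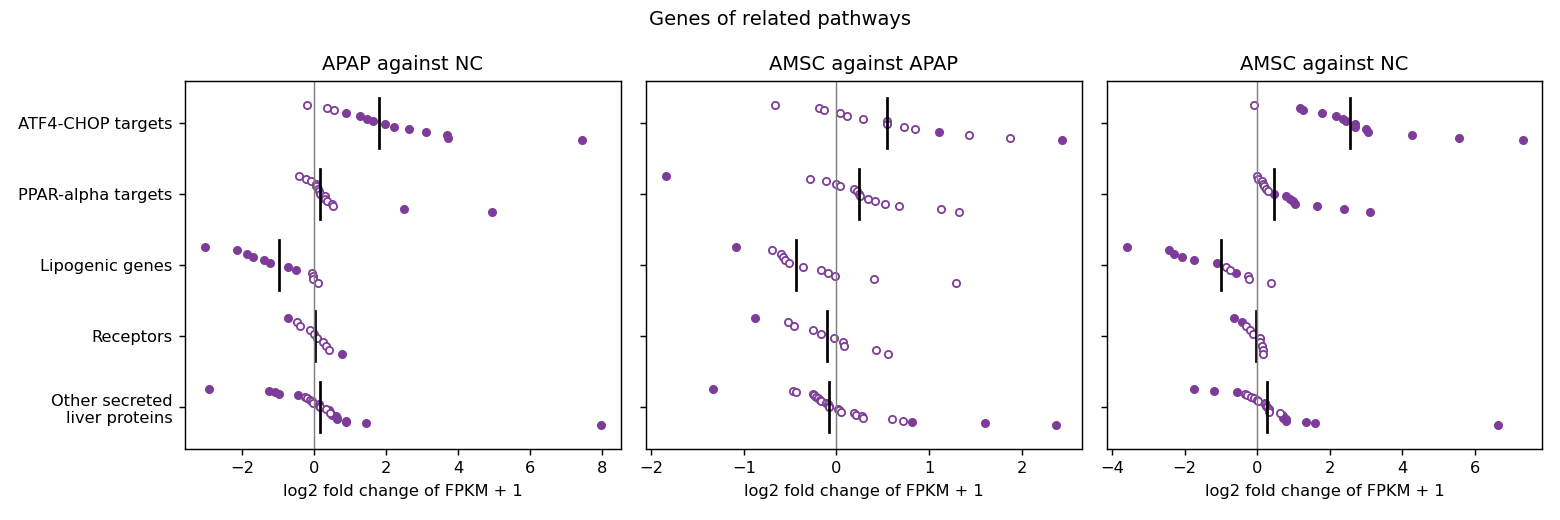
The log2 fold change of FPKM + 1 (x axis, which differs between panels) of each tested gene in 5 lists, with filled points for a limma adjusted p of at most 0.05, open points for the rest and a vertical bar at the median of the list. In APAP against NC the ATF4-CHOP targets have a median of 1.80 and the lipogenic genes one of -0.99.

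Adipocyte markers were examined because Fgf21, Angptl4 and Angptl8 are also expressed in fat and the injected cells came from fat. The 6 markers summed to 1.20 to 2.23 FPKM in the NC group, 10.5 to 38.2 in the APAP group and 10.1 to 24.6 in the AMSC group. Between 3 and 5 of the 6 were at 0 in each library. The higher sums of the dosed groups were those of Cidec, a lipid droplet protein that hepatocytes storing fat also make, at means of 1.42 ± 0.25, 20.1 ± 15.7 and 16.2 ± 7.49 FPKM in the NC, APAP and AMSC groups (SD, n = 3 each), and it was the 1 of the 6 that passed the filter on low values. Retn was at 0 in all libraries, Adipoq, Lep and Plin1 had means of at most 0.0719 FPKM in any group, and Cfd had a mean of 0.315 FPKM in NC, 0 in APAP and 0.0481 in AMSC livers. The stromal markers, which AMSCs would share, summed to 21.4 to 39.2, 27.3 to 58.6 and 27.1 to 44.9 FPKM in the 3 groups, and the 9 tested had limma adjusted p values of 0.132 to 0.851 in AMSC against APAP.

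The genes with the pattern most like each hepatokine were named by Pearson's r of log2(FPKM + 1) over the 9 libraries, which fall into 3 groups that largely set the r, so they are given with no test. For Gdf15 the first was Gadd45a, a DNA damage response gene (r = 0.991), at 1.58 ± 0.420, 67.9 ± 24.2 and 25.1 ± 8.28 FPKM in the NC, APAP and AMSC groups (SD, n = 3 each). Angptl4 was nearest to Rassf1 (r = 0.998), Osgin1 and the p53 target Bbc3, Inhbb to Slc25a30 (0.989), Zswim6 and Tpm4, and Fgf21 to Ppp2r2d (0.990), Tbc1d22a and Gm1821. Inhbe was nearest to Hlf, a transcription factor of the circadian PAR bZIP family (r = 0.995), which stood at 10.2 ± 1.57, 3.38 ± 1.27 and 6.78 ± 1.22 FPKM. Lect2 was nearest to Gulo, an enzyme of vitamin C synthesis in hepatocytes (r = 0.989), and to the cytochromes Cyp2c67 and Cyp2c29, which the group means place in the same order of NC, AMSC and APAP. Inhbc was nearest to Ankrd46 (r = 0.987), Angptl8 to the immunoproteasome subunit Psmb9 (0.980) and Ahsg to Rbm18 (0.984).

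The gene models of 5 of the 10 overlap genes on the opposite strand, and whether strand was used in counting is not given in the sources used here. The overlapping genes of Inhba, Inhbc, Inhbe and Ahsg held at most 35 reads in a library, and Dock6, which spans Angptl8, at most 286 reads over its own length, with no exon bases shared with Angptl8.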

How the data were processed

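Libraries were made from liver RNA with a SMARTER mRNA kit and sequenced by a service company. The deposited table held FPKM for 54532 genes, which the authors made, beside gene lengths and coordinates. The authors named DESeq2 1.20.0 for their own tests. GRCm38 and mm10 are named in the submitters' processing notes, while the aligner and counting program are not given in the sources used here. Of 54495 identifiers shared with GENCODE release 21 for mouse, 98.33% had the same start and end. All FPKM values above 0 were whole reads within 0.1 after multiplication by gene length and a step per library.

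Groups were taken from the sample labels. log2(FPKM + 1) values of the 9699 genes whose mean reached 1 FPKM were tested with limma 3.58.1 (trend) in R 4.3.3, 2 groups per fit, with Benjamini-Hochberg adjustment over all genes tested. Calls needed an adjusted p of at most 0.05, and DEGs also a log2 change of at least 1. The members, lists, markers and motifs were chosen with earlier results of these data known. The named genes were all members, up to 4 passing genes per comparison with the largest change from each pathway list and the other secreted proteins, the receptors, binding proteins, lipases and angiopoietin-like genes by value or count, and the 3 genes most correlated with each member. In APAP against NC, libraries with the same number deviated together from their groups, with correlations of 0.213, 0.160 and 0.378. The third correlation rests on the sample description, since the title of NC replicate 3 carries the number 1 and another date. No pairing of the mice is given in the sources used here. Libraries with different numbers reached 0.409 in another comparison (AMSC replicate 2 with APAP replicate 3). The values reported come from the fit without pairs, and a fit with the numbers as a block changed no call of a member in APAP against NC. The alternatives were another pseudocount, filters, scalings and models, and leaving out each library. A related gene was left out of the lists and is not reported here. Rescaling to total reads was added after seeing the data. Matplotlib 3.10.9 in Python 3.11.15 drew the figures.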

Additional observations from a re-analysis of the deposited data

How the results depend on the processing

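Over the 9 genes tested, 382 of 429 alternative values kept direction and side of the threshold, 31 lost the call, 15 gained it and 1 turned, namely Inhbc in AMSC against APAP without APAP replicate 3 (-0.016, in a range of -0.016 to 0.45 without single libraries). Median-of-ratios rescaling is among these alternatives, but the deposited values were already close to that scale, so it could hardly change a result. It gave the same numbers of calls over all genes as the main fit, 2514 in APAP against NC, 367 in AMSC against APAP and 2521 in AMSC against NC. In APAP against NC, the members past the threshold went from 8 to 5 with all genes above 0 tested, where Inhbc, Angptl8 and Lect2 were lost and 24849 tests were adjusted for. In AMSC against APAP, the 1 member past the threshold became 0 with all genes above 0 and 0 with a mean of at least 5 FPKM, which removes Inhbb, 2 with all libraries in one fit, 2 with total reads as the scale, 3 with voom and 0 to 4 when single libraries were left out. In AMSC against NC, the 9 became 5 with all genes above 0. DEGs among all genes went from 766 in APAP against NC to 478 with a mean of at least 5 FPKM and 1197 with voom, from 190 in AMSC against APAP to 21 with all genes above 0, 102 with a mean of at least 5 FPKM, 296 with voom and 90 to 229 without single libraries, and from 583 in AMSC against NC to 915 with a pseudocount of 0.1 and 968 with voom. Where the filter did not itself set these changes, the cause was not tested. The AMSC libraries share only the numbers 2 and 3 with the other groups, and their deviations correlated at -0.104 and -0.293 with those of APAP and at -0.199 and -0.309 with those of NC, so these numbers were not taken as pairs. A replicate block there gave 335 DEGs and 6 members in AMSC against APAP and 5 members in AMSC against NC. Its estimates rest on replicates 2 and 3 only, since the other libraries share no number. Depth limits Fgf21 and Inhbb in the NC group, which rest on 10 and 40 reads in all.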

Other observations

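APAP replicate 1 was the APAP library nearest to the AMSC mean for 6 of the 10 genes, namely Gdf15 (303 FPKM), Inhbe (4.42), Angptl4 (97.4), Angptl8 (42.7), Lect2 (29.0) and Inhbb (2.77). For Inhbb, APAP replicate 3 was nearly as close (2.82). How often APAP replicate 1 was the nearest over all genes was not counted, so the count cannot be read as a trait of the hepatokines. APAP replicate 1 also had the lowest hepatocyte marker sum (56945 FPKM) and the highest neutrophil (34.8), endothelial (71.5) and stromal (58.6) marker sums of its group. Its macrophage sum (166) was below that of APAP replicate 3 (201). Alb alone made up most of the hepatocyte sum, with a mean of 44835 of 62972 FPKM in the APAP group. APAP replicate 1 was singled out after its values were seen, and the part of these cells in the hepatokine values was not tested.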
